A study of Mus with 7 samples.

Results

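The interferon-high cells described here were the 25% of macrophages with the most interferon-response RNA after 4 h of lipopolysaccharide (LPS). They were 248 of the 993 cells kept in the Veh.LPS.4 library and 248 of the 11640 cells kept in all 7 libraries. They were chosen by a measured value, the interferon score: the UMIs (unique molecular identifiers, each standing for 1 captured RNA molecule) of Ifit1, Ifit2, Ifit3, Isg15, Rsad2, Oasl1, Usp18, Irf7, Cxcl10 and Cmpk2 as a share of all UMIs of the cell, printed as counts per 1000000 UMIs (CPM). A cell was kept when it held more than 20000 UMIs, at least 2000 genes and under 20% mitochondrial UMIs. The 248 cells with the lowest scores in the same library, called interferon-low, were the comparison. In score order the 4 groups of the library are Q1 (interferon-low), Q2, Q3 and Q4 (interferon-high). All were drawn from a single culture sample, so cells are not replicates and no test across samples was possible.

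The cells were fetal liver-derived macrophages (FLMs), a self-renewing, GM-CSF-dependent macrophage culture grown from wild-type mouse fetal liver. Every library came from wt cells in medium with GM-CSF at 30 ng/mL. Con cells were untreated in 10% fetal bovine serum (FBS), and the other 6 libraries spent 24 h in 0.25% FBS with either 8.3 µM bovine serum albumin (Veh) or 25 µM docosahexaenoic acid (DHA) carried on that albumin. LPS at 20 ng/mL was then given for 0, 1 or 4 h, which makes Veh.LPS.4 the 4 h library without DHA. All of these macrophages are cultured cells and not cells taken from an adult tissue, and each condition was 1 library.

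LPS is a cell-wall component of Gram-negative bacteria that macrophages sense through TLR4 with CD14. One arm of that receptor runs through MyD88 to NF-kB and turns on cytokine genes such as Tnf and Il1b. The other runs through the adaptor TICAM1 (TRIF) and the kinase TBK1 to IRF3 and the interferon-beta gene, Ifnb1. Secreted type I interferon (IFN1) binds IFNAR1 and IFNAR2 on the same and neighbouring cells, and signalling from that receptor then switches on the interferon-stimulated genes. Interferon-beta production is known to be limited to a minority of cells in many stimulated populations.

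Median depth and quality were alike at both ends of the score. The median cell held 54874 UMIs among interferon-high and 55560.5 among interferon-low cells, with medians of 5643 and 5719 genes and of 6.86% and 6.70% mitochondrial UMIs. The interquartile range of depth was 46764 to 64489 UMIs in interferon-high cells. In interferon-low cells it reached further up, from 45703 to 73753. A doublet caller marked 4 interferon-high and 3 interferon-low cells. Every cell of both groups held UMIs of at least 3 of the 13 macrophage markers, of which Mertk alone had no UMI in any of the 4 groups, and no cell of Q1 to Q4 held 3 markers of neutrophils, dendritic cells, mast cells, lymphocytes, erythroid cells, hepatocytes or stroma. The macrophage markers summed to 5336 CPM of the group's UMIs in interferon-low and 6238 in interferon-high cells, neutrophil markers to 2.67 and 3.02, dendritic cell markers to 2.60 and 2.73, and mast cell markers were at 0. No 2 libraries shared more than 4 cell barcodes.

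The score was a gradient without a gap at its edges. The lowest score among members was 435.4 CPM and the highest outside them was 434.6. Q1 ended at 68.1 CPM and the next cell stood at 68.3. Members ran from 435 to 7779 CPM with a median of 724, against a median of 29.9 in interferon-low cells, where 44 cells held no score UMI at all. Within 10% of the upper edge lay 70 cells. Members are therefore a range of a continuous score.

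**Figure D1:**
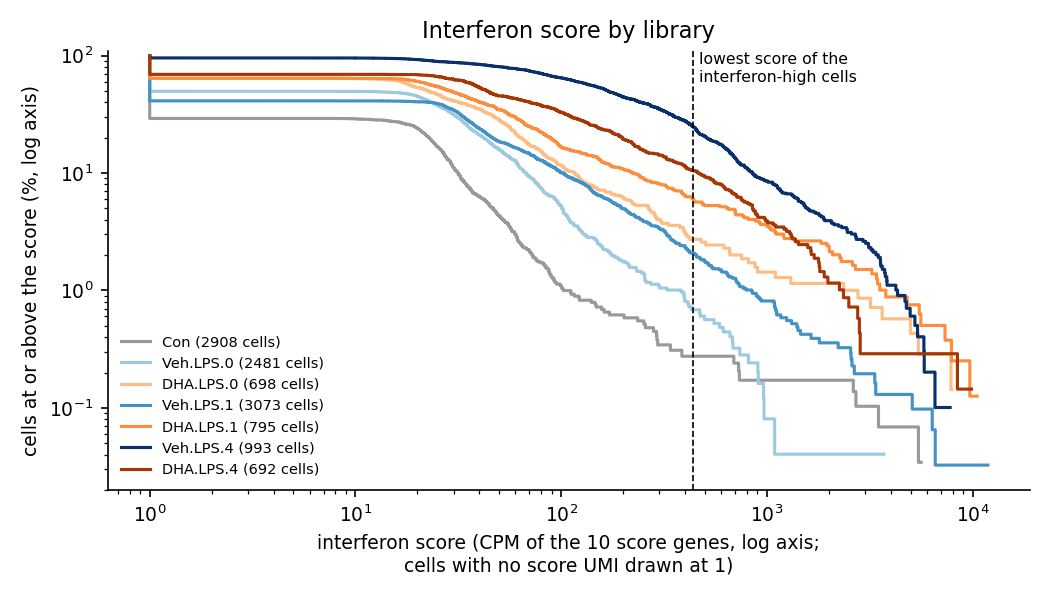
Share of cells (vertical axis, %, log scale) at or above each interferon score (horizontal axis, CPM, log scale), 1 line per library. At the dashed line, the lowest member score, 25.0% of the cells of Veh.LPS.4 lie to the right, against 10.5% for DHA.LPS.4 and 0.275% for Con.

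Because the 10 score genes chose the members, their levels are given as a description only. Ifit1, whose product binds foreign RNA 5′ ends, stood at 0.78 CPM in Q1, 2.78 in Q2, 8.77 in Q3 and 170 in Q4. Oasl1, an OAS-like protein known to restrain translation of Irf7, went from 12.9 through 55.7 and 153 to 402 CPM. Cxcl10, a chemokine for activated T cells, went from 2.99 through 7.61 and 15.6 to 233 CPM. Isg15, a ubiquitin-like modifier, stood at 6.18 and 141 CPM at the ends, and Usp18, which removes ISG15 and dampens IFNAR signalling, at 2.02 and 88.1. Irf7, the transcription factor that amplifies interferon production, stood at 6.44 and 75.2 CPM. Ifit2 stood at 0.59 and 61.3 CPM, Ifit3 at 0.13 and 27.5, Rsad2 (viperin, an antiviral radical-SAM enzyme) at 0.26 and 31.3 and its partner enzyme Cmpk2 at 0.07 and 11.9. Each gene was highest in Q4, and the Q1 values of Ifit3, Rsad2 and Cmpk2 rest on 2, 4 and 1 UMIs.

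**Figure D2:**
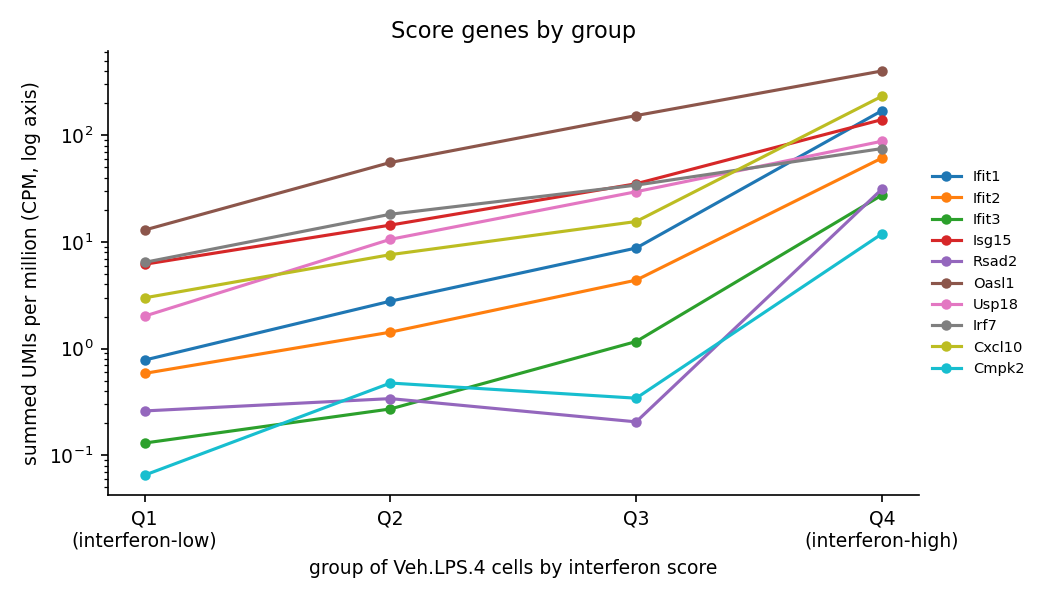
Level of each score gene (vertical axis, CPM, log scale) in the 4 groups of Veh.LPS.4 cells by interferon score. Ifit1 climbs from 0.78 to 170 CPM and Oasl1 from 12.9 to 402 CPM, a rise fixed in its direction by the choice of cells.

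Members did not all carry the same mix. Oasl1 held the most score UMIs in 161 of 248 members and 32.4% of all score UMIs among them, and Cxcl10 led in 33 members and Ifit1 in 24. The median member held UMIs of 5.5 of the 10 genes, 174 members (70.2%) held at least 5, and 10 members held all 10. In Q1, 1 cell (0.403%) held 5 or more. After each cell was thinned to 20000 UMIs, 46.8% of members held 5 or more, and 0 of 248 interferon-low cells did, which allows a share of up to 1.21%. Rsad2 was the most uneven, with 86.2% of its member UMIs in 10 cells and at least 1 UMI in 13.3% of members. Oasl1 was the most even, with 13.6% of its UMIs in its 10 highest cells and a UMI in 99.6% of members.

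The score genes still moved together when each was judged by the other 9. With the gene itself left out of the score, its log2 ratio of high to low cells ran from 2.59 (95% counting interval 2.48 to 2.70) for Oasl1 to 7.67 (5.81 to 10.7) for Ifit3. Ifit1 stood at 7.08 (6.43 to 7.81), Cxcl10 at 4.20 (3.98 to 4.42), Isg15 at 3.81 (3.57 to 4.06) and Irf7 at 2.63 (2.40 to 2.88). Between 202 members (without Oasl1) and 247 (without Rsad2) were shared with the full score. All such intervals are exact binomial, cover counting error of summed UMIs only and take no account of spread between cells or cultures. Over the 993 cells, Spearman's rho between pairs of score genes ran from 0.14 for Cxcl10 with Usp18 to 0.44 for Ifit1 with Ifit2, where the cells share a library and differ in depth.

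Several of these genes are chromosomal neighbours. In the mouse build GRCm38 (mm10), Ifit2 (chr19:34550550-34576534), Ifit3 (chr19:34583119-34588982) and Ifit1 (chr19:34640889-34650009) lie in 1 cluster. Rsad2 (chr12:26442743-26456452) and Cmpk2 (chr12:26469117-26479837) lie side by side. Oasl1 (chr5:114923143-114937911) is followed at its lower end by Gm13822 (chr5:114917318-114922261), a predicted gene, and by Oasl2 (chr5:114896926-114912245). Neither Gm13822 nor Oasl2 entered the score, and both were among the 15 other genes with the highest ratio. Gm13822 was at 1.37 and 15.7 CPM (log2 ratio 3.52, 2.88 to 4.25), and Oasl2 at 0.46 and 13.3 CPM (4.87, 3.79 to 6.20). Oasl2 had few UMIs in Q1 and a UMI in 64 members, with 39.5% of its member UMIs in 10 cells. Igtp (chr11:58199556-58207592) and Irgm2 (chr11:58214977-58222783), both interferon-inducible GTPases, are neighbours too, at log2 ratios of 3.35 (2.79 to 3.96) and 3.08 (2.48 to 3.75).

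Genes outside the score were compared by summing UMIs over each group. The choice of cells did not read these genes, but their UMIs come from the same cells, so the ratios describe this library and carry no test. Where a UMI was required in 25% or more of the cells of Q1 or Q4, 7890 genes remained, of which 263 (3.33%) were over 1.5-fold higher in the interferon-high cells and 108 (1.37%) were over 1.5-fold lower. That limit lets in genes on the strength of the group where they are high. With at least 10 UMIs required in both groups, 594 of 10208 genes (5.82%) were higher and 280 (2.74%) lower, and the median log2 ratio was -0.02. The lists below were counted on that second rule.

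The interferon programme extended well past the score. Of 64 other IFN1-induced effectors in the files, 45 were counted, 39 of these were over 1.5-fold higher and none was lower, with a median log2 ratio of 1.76 against -0.02 for all genes. A further 19 had fewer than 10 UMIs in Q1, Q4 or both, and 2 of these had none in either. Herc6, an ISG15 ligase, stood highest among those counted, at 1.497, 3.46, 6.72 and 25.9 CPM from Q1 to Q4 (log2 ratio 4.11, 3.51 to 4.79). Isg20, an exonuclease, stood at 1.17 and 14.1 CPM (3.59, 2.89 to 4.37), and Phf11d at 9.31, 16.1, 30.0 and 77.6 CPM (3.06, 2.81 to 3.32). Rtp4, outside the list, stood at 3.97, 11.7, 27.1 and 59.5 CPM (3.91, 3.53 to 4.31). Herc6, Phf11d and Rtp4 were higher in each successive group. The most abundant effector, Ifitm3, which blocks viral entry, stood at 1634 and 2086 CPM (0.35, 0.33 to 0.38), and Ifitm2, which had the lowest ratio of the 45, at 437 and 439 (0.00, -0.05 to 0.05).

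Interferon-inducible GTPases, which attack the vacuoles of intracellular pathogens, had the highest median of the lists outside the score. Of 16, 6 were counted, all 6 over 1.5-fold higher with a median log2 ratio of 3.22. Gbp7 stood at 2.21, 2.85, 7.06 and 34.1 CPM (3.95, 3.44 to 4.49), Irgm1 at 12.9, 26.8, 42.9 and 81.0 (2.65, 2.43 to 2.87) and Ifi47, the lowest of the 6, at 5.53 and 22.7 (2.04, 1.69 to 2.40). The other 10 had too few UMIs, and 1 of them had none. Of 11 genes of the DNA-binding p200 family, 9 were counted and 7 were higher, with a median of 1.85. Ifi209 stood at 1.63 and 25.0 CPM (3.94, 3.36 to 4.59), Mndal at 256, 288, 390 and 579 (1.17, 1.12 to 1.23) and Ifi213 at 36.3 and 39.4 (0.12, -0.05 to 0.29). p200 and GTPase genes are close paralogs, so reads may be split between near-identical copies.

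Sensors of foreign nucleic acid were higher in part. Of 15, 11 were counted and 6 were over 1.5-fold higher (median 0.61). Zbp1, a sensor of Z-form nucleic acid that can start necroptosis, had the highest ratio outside the score among genes with a UMI in 25% of cells of Q1 or Q4, at 0.39, 2.24, 1.65 and 14.5 CPM (log2 ratio 5.22, 4.07 to 6.68), with 6 UMIs in Q1 and so outside the 11. Ifih1 (MDA5) stood at 9.44, 14.2, 27.3 and 78.0 CPM (3.05, 2.80 to 3.31) and Dhx58 (LGP2) at 2.02 and 18.8 (3.22, 2.68 to 3.81). Eif2ak2 (PKR), the most abundant, stood at 117, 169, 238 and 328 CPM (1.48, 1.40 to 1.56), whereas Dhx36 was level at 68.7 and 71.8 (0.06, -0.06 to 0.19).

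The transcription factors downstream of the interferon receptor were among the higher genes, and Irf3, which acts upstream of Ifnb1, was not. Of 11 IRF and STAT factors, 7 were over 1.5-fold higher and none lower. Stat2 stood at 7.55, 11.8, 19.9 and 40.4 CPM (log2 ratio 2.42, 2.13 to 2.72) and Irf1 at 3.58, 7.34, 12.0 and 19.8 (2.46, 2.04 to 2.91). Batf2 stood at 1.11 and 8.98 CPM (3.02, 2.28 to 3.85). Irf9 differed in shape: it was at 34.1 CPM in Q1 and 51.2, 53.3 and 51.7 in the other 3 (0.60, 0.44 to 0.77), just past the 1.5-fold limit, and under it in 6 of the alternative settings tried. Irf3 stood at 10.3 and 11.9 CPM (0.20, -0.12 to 0.53), and Irf8, a macrophage lineage factor, at 147 and 135 (-0.12, -0.21 to -0.03).

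Antigen presentation genes were higher in part. All 19 MHC class I pathway genes were counted, 9 were over 1.5-fold higher and all 19 ratios were above 1 (median log2 0.55). Tap1, which pumps peptides into the endoplasmic reticulum, stood at 5.53, 8.49, 14.5 and 29.8 CPM (2.43, 2.09 to 2.78). H2-T24, a class I-like gene outside the list, stood at 0.65 and 7.33 (3.49, 2.56 to 4.60). H2-D1, the gene of the list with the most UMIs, stood at 1197 and 1370 CPM (0.20, 0.17 to 0.22) and H2-Q7 at 24.1 and 24.9 (0.05, -0.17 to 0.27). Of 16 costimulation and feedback genes, 12 were counted and 5 were higher, led by Il15ra at 1.76 and 6.54 CPM (1.90, 1.26 to 2.57), while Socs3 was at 102 and 104 (0.03, -0.07 to 0.14).

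**Figure D3:**
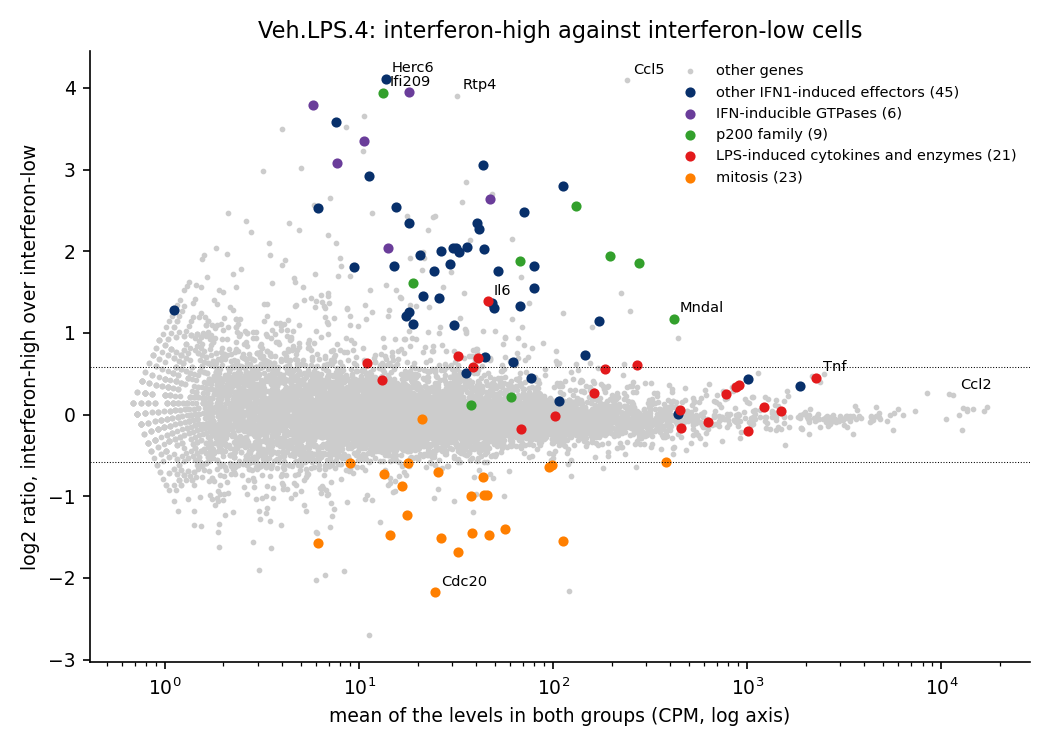
Log2 ratio of interferon-high to interferon-low cells (vertical axis) against mean level (horizontal axis, CPM, log scale) for genes with at least 10 UMIs in both groups of Veh.LPS.4, score genes left out. Dotted lines mark 1.5-fold. The 45 effectors sit above 0 apart from Ifitm2 at 0.00, the 21 LPS-induced cytokines and enzymes have a median of 0.34 with 6 past 1.5-fold and Il6 at 1.39, and the 23 mitosis genes lie below 0.

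The cytokine arm of the LPS response differed far less between the groups. Of 23 LPS-induced cytokines and enzymes, 21 were counted, 6 were over 1.5-fold higher and none was lower, with a median log2 ratio of 0.34. Tnf stood at 1916, 2377, 2268 and 2622 CPM from Q1 to Q4 (0.45, 0.43 to 0.47), Il1b at 709, 830, 791 and 844 (0.25, 0.21 to 0.29), and Sod2 at 1078 and 939 (-0.20, -0.23 to -0.17). The median was 0.10 when the groups were drawn within 5 depth classes and 0.02 in cells of low cell cycle share. Il6 had the highest ratio of the 21, at 25.4, 27.5, 29.1 and 66.6 CPM (1.39, 1.22 to 1.57), with 45.5% of its member UMIs in 10 cells. Of 16 NF-kB subunits and inhibitors, 1 was over 1.5-fold higher, a share near the 5.82% of all counted genes. It was Nfkbie at 15.8 and 28.0 CPM (0.83, 0.60 to 1.07), which was under the limit in 3 of the alternative settings and 0.26 between the extreme 10% of cells. Nfkbia was at 943 and 1049 (0.15, 0.12 to 0.19). Il10 had fewer than 10 UMIs in each group.

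None of the 19 genes of the TLR4 complex and its adaptors passed 1.5-fold in either direction. Over all counted genes 5.82% were higher and 2.74% lower, so 0 of 19 is near that share. Tlr4 stood at 15.8 and 19.4 CPM (log2 ratio 0.29, 0.04 to 0.55), Ticam1 at 17.4 and 21.8 (0.32, 0.08 to 0.57), Tbk1 at 37.3 and 47.0 (0.33, 0.17 to 0.50) and Ikbke, the kinase closest to TBK1, at 41.8 and 54.6 (0.38, 0.23 to 0.54). Cd14 stood at 2002 and 1791 CPM (-0.16, -0.18 to -0.14). The interferon receptor genes were likewise close: Ifnar1 at 16.3 and 22.3 CPM (0.45, 0.20 to 0.69), Ifnar2 at 53.1 and 62.2 (0.23, 0.09 to 0.37) and Jak1 at 97.2 and 97.9 (0.01, -0.10 to 0.12).

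Chemokines divided in the same way. Of 17, 13 were counted, 5 were higher and 1 lower. Ccl5, which attracts T cells and monocytes, stood at 26.5, 156, 146 and 453 CPM (log2 ratio 4.10, 3.95 to 4.24), and 50.6% of its member UMIs lay in 10 cells. The abundant chemokines were close to level, with Ccl2 at 10589 and 12485 CPM (0.24, 0.23 to 0.25) and Cxcl2 at 13205 and 13876 (0.07, 0.06 to 0.08, and -0.14 with the equal-weight score). Cxcl3 was lower, at 5.34 and 1.72 CPM (-1.63, -2.35 to -0.96), on 82 and 24 UMIs, and stood at 0.38 in cells of low cell cycle share. Egr1, an immediate-early transcription factor, was higher at 7.68, 13.2, 10.5 and 41.4 CPM (2.43, 2.14 to 2.73). It was the highest of 19 counted stress and immediate-early genes, of which 5 were higher and none lower. Egr1 UMIs were found in under 25% of the cells of Q1 and of Q4, so most members held none. How far a few cells carry its ratio was not tested. Of 17 cell death genes, 4 were higher and none lower, led by Mlkl, the pore-forming protein of necroptosis, at 12.0 and 20.8 CPM (0.80, 0.53 to 1.07).

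Interferon-low cells carried the cytokine RNA of the LPS response, with a median of the interferon effectors near that of all genes. Q1 was chosen for a low score and Veh.LPS.0 was not split by score. That choice holds genes that move with the score low in Q1. Against the unstimulated Veh.LPS.0 library, the LPS-induced cytokines and enzymes had a median log2 ratio of 4.27 in Q1 and 4.96 in Q4, over 19 genes and with -0.41 and -0.40 as the medians of all genes. Tnf was at 152 CPM in Veh.LPS.0 and 1916 in Q1, and Il1b had no UMI in Veh.LPS.0 and stood at 709 CPM. The 45 counted effectors had medians of -0.28 in Q1 and 1.25 in Q4 against the same library. In Q1 the p200 family stood at 0.33, costimulation and IFN feedback at 0.44 and the counted score genes at 0.44. The GTPases stood at -0.09, the IRF and STAT factors at -0.26 and the sensors at -0.34. Both the MHC class I pathway and the IFN ligands and receptors stood at -0.49. Ifit1 stood at 0.44 CPM in Veh.LPS.0 and 0.78 in Q1. These ratios compare a subset of 1 library with another library, so the library and the time cannot be told apart.

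**Figure D4:**
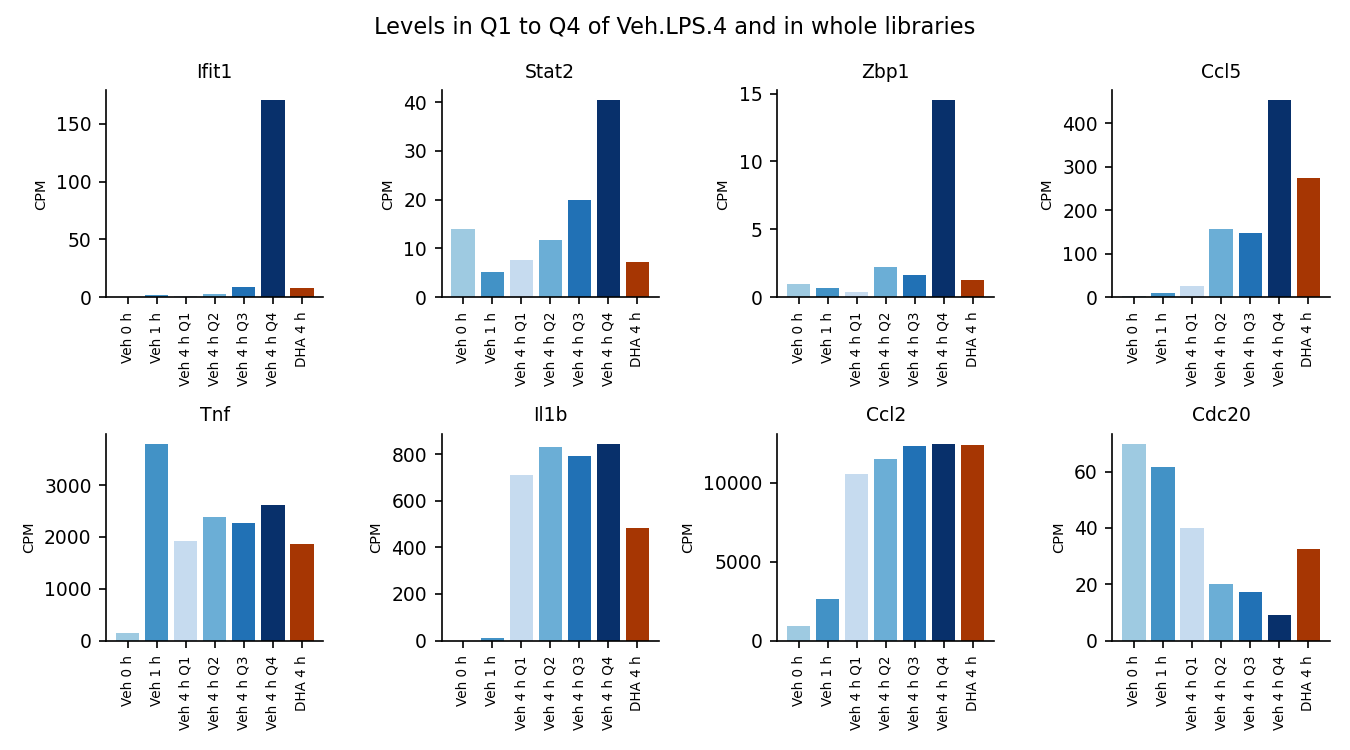
Level (vertical axis of each panel, CPM, linear from 0) of 8 genes in Veh.LPS.0, Veh.LPS.1, the groups Q1 (interferon-low) to Q4 (interferon-high) of Veh.LPS.4, and DHA.LPS.4. Tnf, Il1b and Ccl2 are within 1.5-fold across Q1 to Q4, Ifit1, Stat2, Zbp1 and Ccl5 are highest in Q4, and Cdc20 is lowest in Q4 at 8.91 CPM.

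Ifnb1 itself was found in few cells, mostly members. It did not enter the score. A UMI of Ifnb1 was present in 18 of 248 members (7.26%, 95% exact interval 4.36 to 11.2), in 1 of 248 cells of Q1 (0.403%, 0.0102 to 2.23), in none of 248 cells of Q2, which allows a share of up to 1.21% at a floor of 3 counts, and in 2 of 249 of Q3 (0.803%, 0.0974 to 2.87). Members held 177 of the 197 Ifnb1 UMIs of the library, and the 2 cells with the most held 50 and 42, at score ranks 990 and 986 of 993. A further cell with 18 UMIs stood outside the members, at rank 611 with a score of 265 CPM. In the other libraries a UMI was found in 5 of 692 DHA.LPS.4 cells, 4 of 3073 Veh.LPS.1 cells, 1 cell each of Con, DHA.LPS.0 and DHA.LPS.1 and no Veh.LPS.0 cell. The cultures hold no other cell type from which a background of free RNA could be read. The other members had no Ifnb1 UMI, and at this capture rate a UMI count of 0 does not show that the gene was silent. With every Ifnb1-positive cell left out and the groups drawn again, 234 genes were over 1.5-fold higher and the median of the effectors was 1.64.

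Genes of mitosis were lower in the interferon-high cells of Veh.LPS.4. Of 23, 21 were over 1.5-fold lower and none higher (median log2 ratio -0.98, against 2.74% lower among all counted genes). Cdc20, which activates the anaphase-promoting complex, stood at 40.2, 20.1, 17.4 and 8.91 CPM from Q1 to Q4 (-2.17, -2.46 to -1.89). Ccnb1, the mitotic cyclin, stood at 49.1, 28.8, 23.9 and 15.3 (-1.68, -1.91 to -1.46), Nek2 at 13.3 and 3.52 (-1.92, -2.40 to -1.46), Ube2c at 167 and 57.5 (-1.54, -1.66 to -1.43), Hmmr at 38.9 and 13.7 (-1.51, -1.75 to -1.27) and Aurka at 21.2 and 7.61 (-1.48, -1.81 to -1.16). Ccnb2, Cenpf and Cdc25b completed 9 of the 10 lowest genes, between -1.47 and -1.43. Mki67 stood at 116, 97.5, 99.7 and 74.3 CPM (-0.64, -0.75 to -0.53) and Top2a at 120, 112, 102 and 78.1 (-0.62, -0.73 to -0.51). The pooled share of UMIs in DNA replication and mitosis genes was 0.228% in Q1 and 0.143% in Q4. Of 20 DNA replication genes none passed 1.5-fold (median -0.31, and 0.14 between the extreme 10% of cells), with Pcna at 105 and 91.1 CPM (-0.20, -0.31 to -0.10).

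The mitosis values moved with the way the score weighs its genes. With each score gene given equal weight by ranks, the mitosis median was -0.50, Mki67 stood at -0.01 and Top2a at -0.01. In cells below the median cell cycle share, which leaves few mitotic UMIs by construction, the median was 0.07. Other vehicle libraries went the other way when split by the same score. The mitosis median was 0.43 in Veh.LPS.0 and 0.33 in Veh.LPS.1, with all 23 ratios above 1 in each. These splits are unlike that of Veh.LPS.4. A score of 0 was held by 50.3% of Veh.LPS.0 and 58.8% of Veh.LPS.1 cells, against 4.43% in Veh.LPS.4. Their lowest 25% was thus a part of the tied cells, taken in file order. Their 75th percentiles were 35.2 and 38.5 CPM, below the 68.1 CPM where Q1 of Veh.LPS.4 ended. Whether depth moves these ratios was not tested. The remaining member of the lowest 10, Gm5483, a predicted gene, stood at 198, 86.4, 97.4 and 44.4 CPM (-2.16, -2.28 to -2.03), and at 1.02 between the extreme 10% of cells.

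Metabolic and lineage genes differed little. Over all counted genes, 5.82% were over 1.5-fold higher and 2.74% lower, so a single gene past the limit in a list is near that share. Of 20 cholesterol synthesis genes none passed 1.5-fold, yet 19 ratios were below 1 (median log2 -0.34): Fdps stood at 573 and 449 CPM (-0.35, -0.40 to -0.31) and Acat2 at 54.7 and 36.6 (-0.58, -0.74 to -0.42). Of 14 counted SREBP and LXR genes, 1 was higher, the cholesterol exporter Abcg1 at 3.38 and 8.40 CPM (1.31, 0.83 to 1.81), and 1 was lower, Apoe on 27 and 12 UMIs. Hmox1, which degrades haem, was the 1 of 17 counted NRF2 and metal genes past the limit, at 103 and 158 CPM (0.62, 0.52 to 0.71), but it was under the limit in 6 alternative settings and at 0.018 with the equal-weight score. None of 16 counted glycolysis and hypoxia genes passed it, with Gapdh at 2747 and 2564 CPM (-0.10, -0.12 to -0.08). Of 12 ER stress genes 1 passed, Pdia4 at 56.3 and 98.8 CPM (0.81, 0.69 to 0.94), with 42.0% of its member UMIs in 10 cells. Hspa5 was at 2050 and 2895 (0.50, 0.48 to 0.52). Among 12 counted macrophage markers, 1 passed, the GM-CSF receptor subunit Csf2rb at 9.11 and 14.7 CPM (0.69, 0.38 to 1.01), which fell under the limit in 2 alternative settings. Lyz2 stood at 1799 and 2494 (0.47, 0.45 to 0.49) and Spi1 (PU.1) at 318 and 314 (-0.02, -0.08 to 0.04).

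At equal depth of 20000 UMIs per cell, 4 of the interferon lists tracked the score most closely. Over the 993 cells of 1 library, which share a culture and the thinned depth, Spearman's rho with the score was 0.56 for the p200 family, 0.50 for the sensors, 0.47 for the GTPases and 0.46 for the other effectors. It was 0.27 for the MHC class I pathway, 0.22 for the IRF and STAT factors, 0.18 for costimulation and IFN feedback, 0.08 for chemokines and 0.08 for IFN ligands and receptors. It was 0.08 for the LPS-induced cytokines and enzymes, 0.06 for the NF-kB genes and -0.14 for mitosis. The median cell held 31.5 p200 UMIs in Q4 and 11 in Q1, with interquartile ranges of 22 to 48 and 7 to 15.2. In a nearest-neighbour graph of all genes except the score genes, 40.0% of the 20 neighbours of members were members, against 9.25% for interferon-low cells and 25% for even mixing. Without the 195 genes of the interferon lists these shares were 33.5% and 12.8%. Genes outside the lists that were higher in members, such as Rtp4 and H2-T24, were not dropped.

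Among the members themselves the programme still varied. The 62 members with the highest scores (1366 to 7779 CPM) were set against the 62 with the lowest (435 to 545). Of 8583 genes, 650 (7.57%) were over 1.5-fold higher and 541 (6.3%) lower. The GTPases had a median log2 ratio of 1.87 with all 6 counted genes over 1.5-fold higher, the p200 family 1.07 with 7 of 9, and the other effectors 0.86 with 31 of 46. The LPS-induced cytokines and enzymes had a median of -0.11, the NF-kB genes -0.09 and all genes -0.04. ER stress had 6 of 12 genes higher (0.52), NRF2 and metal genes 6 of 17 (0.37) and cell death 4 of 16 (0.40). Immediate-early and handling stress had 6 of 18 higher and 1 lower (0.24). Of the ER stress genes, Pdia4 had 42.0% of its UMIs over all members in 10 cells. How far a few cells carry these ratios was not tested. Mitosis stood at -0.80 and cholesterol synthesis at -0.49. The median depth was 53699 UMIs in the highest and 59778 in the lowest members.

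Cells past the lowest member score were present in every library. They made up 8 of 2908 cells in Con (0.275%, 95% exact interval 0.119 to 0.541), 17 of 2481 in Veh.LPS.0 (0.685%, 0.400 to 1.09), 64 of 3073 in Veh.LPS.1 (2.08%, 1.61 to 2.65) and, for DHA, 19 of 698 at 0 h (2.72%, 1.65 to 4.22), 48 of 795 at 1 h (6.04%, 4.48 to 7.93) and 73 of 692 at 4 h (10.5%, 8.36 to 13.1). At 4 h the share was lower with DHA than the 25.0% that the rule fixed for Veh, and at 0 and 1 h it was higher with DHA than with Veh. These intervals count the cells of 1 library and take no account of spread between cultures. With 1 library per condition the differences between DHA and Veh were not tested. Cells past the score did not all carry the members' mix of score genes. At least 5 score genes were held by 62.5% of them in Con, 82.4% in Veh.LPS.0 and 21.9% in Veh.LPS.1. For DHA these shares were 68.4% at 0 h, 52.1% at 1 h and 35.6% at 4 h, against 70.2% of members. In Veh.LPS.1 these cells held a median of 2 score genes and Cxcl10 at 796 CPM, against 5.5 and 233 in members. These counts were not taken at equal depth. The DHA.LPS.4 share was 10.7% after thinning, 12.0% with cells over 10000 UMIs kept in both libraries and 5.20% with the equal-weight score. DHA.LPS.4 cells held a median of 29631 UMIs against 56239 in Veh.LPS.4. By number, 692 of 5722 DHA.LPS.4 barcodes passed the limits, compared with 993 of 2443 for Veh.LPS.4. At 0 h, 698 of 3773 passed with DHA and 2481 of 4461 with Veh. At 1 h the counts were 795 of 4395 and 3073 of 5705. Pooled over removed barcodes, the score was 125 CPM in DHA.LPS.4 and 325 in Veh.LPS.4. In kept cells it was 181 and 402. Whether the selection moves these shares was not tested.

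The same split was made within DHA.LPS.4, in cells the rule had not used. Its highest and lowest 25% held 173 cells each, and every cell of the lowest was at a score of 0, where 213 cells were tied. The 75th percentile of the score was 148 CPM in DHA.LPS.4, against 435 in Veh.LPS.4. The lowest member score was reached by 73 of the 692 DHA.LPS.4 cells. Of 6787 genes, 190 (2.8%) were over 1.5-fold higher and 77 (1.13%) lower. With 10 UMIs required in both groups, 463 of 9283 (4.99%) were higher and 267 (2.88%) lower. Of the other effectors 42 were counted, 30 were higher and none lower (median log2 ratio 0.98), and of the p200 family 6 of 8 were higher (1.41). Stat2 stood at 2.66 and Ifih1 at 3.77. The LPS-induced cytokines and enzymes had a median of 0.13, with Tnf at 0.21 and Il6 at 2.25, and Ccl5 stood at 4.89. Mitosis differed from Veh.LPS.4 in its values, with 1 of 23 genes lower and a median of -0.15, and Cdc20 stood at -0.76. With 1 library per condition these differences between DHA and Veh were not tested. Whether the lower scores of the highest 25% in DHA.LPS.4 move these medians was not tested.

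**Figure D5:**
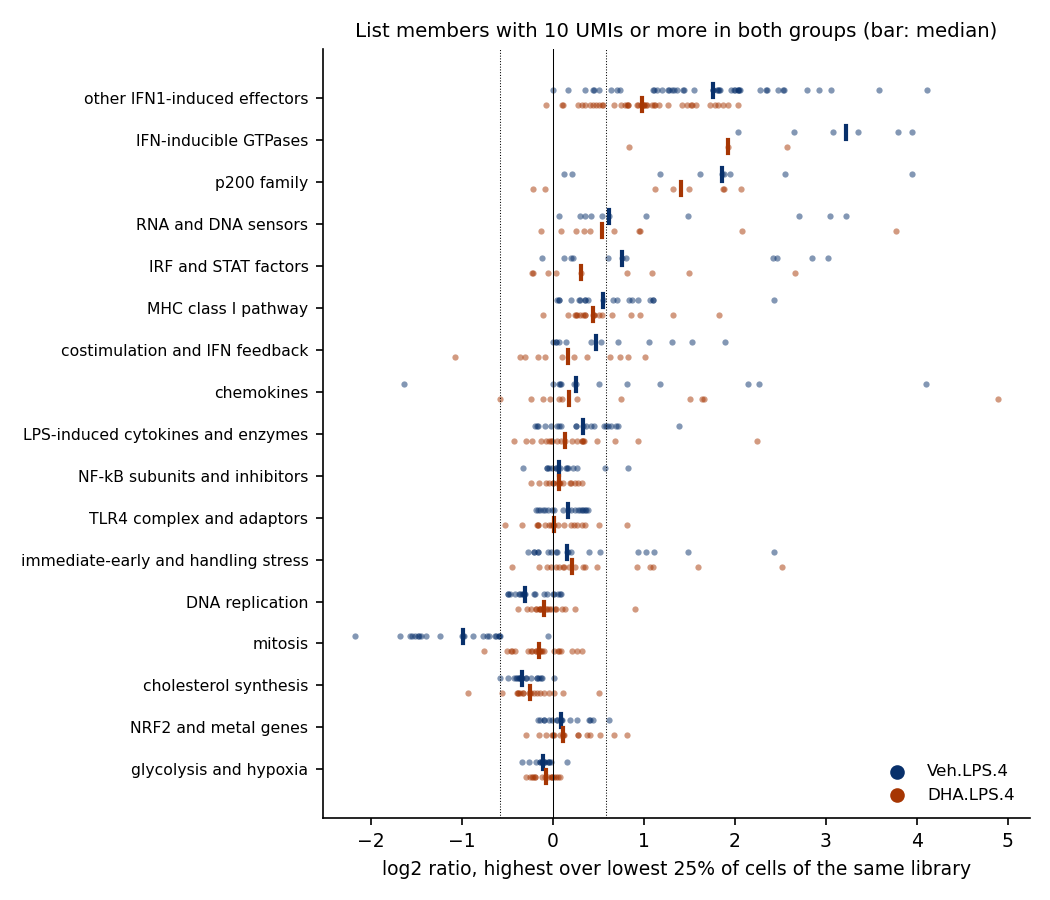
Log2 ratio of the highest to the lowest 25% of cells by score within Veh.LPS.4 (blue) and within DHA.LPS.4 (orange) for each list member with at least 10 UMIs in both groups. Bars are list medians, dotted lines mark 1.5-fold. Other effectors have medians of 1.76 and 0.98, and mitosis of -0.98 and -0.15.

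Cells of both treatments were then held to the same lowest score. The 248 members were set against the 73 DHA.LPS.4 cells at or above a score of 435 CPM. Those DHA cells held a median of 3 score genes and 35.6% held 5 or more, against 5.5 and 70.2% in the members. The DHA cells were also shallower, with a median of 28631 UMIs against 54874 in the members. After thinning, 46.8% of the members held 5 or more score genes. Whether the gap in these counts remains at equal depth was not tested. Oasl1 stood at 577 CPM in the DHA cells against 402 in the members. Of 8242 genes, 410 (4.97%) were over 1.5-fold higher in Veh and 821 (9.96%) higher in DHA. The other effectors had a median log2 ratio of 0.47, higher in Veh, with 17 of 45 over 1.5-fold higher in Veh and 1 in DHA. The median score was 724 CPM in the members and 852 in the DHA cells. Cholesterol synthesis had a median of 1.12 with 16 of 19 genes higher in Veh, NRF2 and metal genes -0.79 with 9 of 17 higher in DHA, and mitosis -0.85 with 17 of 23 higher in DHA. For comparison, the interferon-low cells of Veh.LPS.4 against all DHA.LPS.4 cells had medians of 1.02 for cholesterol synthesis, -0.44 for NRF2 and metal genes and -0.13 for the other effectors. Mitosis had a median of -0.22 in that comparison, against -0.85 for the members.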

How the data were processed

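The libraries were 10x droplet single-cell RNA-seq of 7 FLM cultures, 1 per condition. Gene by barcode matrices of raw UMI counts were deposited by the authors, and the submitters' processing notes name Cell Ranger 3.1.0 and mouse build mm10. Nothing in the files was normalised or scaled. Counts were summed over the cells of each group (the highest and the lowest 25% by score) and divided by the group's total to give CPM (Python 3.11.15, scipy 1.17.1). Ratios carry 95% Clopper-Pearson intervals, which cover counting error only because PCR and cell-to-cell spread are not in them. Shares of cells carry the same kind of interval over the cells of 1 library, without spread between cultures. Genes were called by size alone, over 1.5-fold. Depth was compared, and cells were thinned to 20000 UMIs for shares and correlations. Kept cells held 22045775 to 125716982 UMIs per library. Doublets were called with Scrublet as built into scanpy 1.11.5 and kept in the main values. Alternatives changed the score, the limits, the groups and the scaling (TMM of edgeR 4.0.16). The comparison code was tested on simulated data.

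The members and all 30 gene lists (472 genes) were chosen with earlier results of these data known. Named genes were the score genes, the 15 other genes with the highest and the 10 with the lowest ratio, the highest, lowest and most abundant of each list, and 20 fixed pathway genes. Other list members are given only as counts, and 1 named gene is not reported here. Gene positions are from RefSeq for GRCm38.p6 and were found for all named genes except Gm5483. Promoter sequences were not analysed here. A score of 0 was ordered as in the file.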

Additional observations from a re-analysis of the deposited data

Results flagged for a closer look

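Cxcl3 was 1 of 345 list or named genes counted in both libraries whose ratio of interferon-high to interferon-low cells was past 1.5-fold in opposite directions with Veh and with DHA at 4 h. Its log2 ratio was -1.63 in Veh.LPS.4 and 1.66 in DHA.LPS.4, on 82 and 24 UMIs and on 19 and 62 UMIs (low and high cells). It was also 0.38 in Veh.LPS.4 cells of low cell cycle share. The difference between the libraries was not tested.

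The barcodes of Veh.LPS.4 that the limits on UMIs, genes and mitochondrial share removed also carried the score genes. Pooled over the 1450 removed barcodes, the score was 325 CPM, against 26.0 in the 1980 removed barcodes of Veh.LPS.0 and 125 in the 5030 of DHA.LPS.4. In the kept cells of the same 3 libraries it was 402, 31.9 and 181.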

How the results depend on the processing

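Of 90 recomputed values of the 7 main results, 67 stayed within 1.5 times the reported count or within the reported interval. Those that did not follow, each as genes higher and lower in Veh.LPS.4, then in DHA.LPS.4, where given, and the cause was not tested unless the construction shows it. Between the extreme 10% of cells (fewer cells) the counts were 600, 348, 490 and 499, the effector median 2.29 and the cytokine and enzyme median 0.39. With no limit on the share of cells (more genes) they were 594, 280, 463 and 267. In cells of low cell cycle share (fewer cells) 443 were higher in Veh.LPS.4, and 340 and 271 higher and lower in DHA.LPS.4, with a cytokine median of 0.016. Genes lower were 71 with the groups drawn within 5 depth classes (cytokine median 0.10), 43 and 40 (Veh and DHA) with the equal-weight score (cytokine median 0.14, share of DHA cells past the score 5.20%), 181 and 127 without Cxcl10 in the score, and 124 in DHA.LPS.4 under 10% mitochondrial UMIs.

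Among results past 1.5-fold, directions turned for mitosis (0.072), Aurka (0.072) and Cxcl3 (0.38) in cells of low cell cycle share and for Gm5483 (1.02) between the extreme 10%. Under that limit, 61 values of 29 genes and lists changed sign, among them Cxcl2 (-0.14 with the equal-weight score), Il1b (-0.058) and Ccl2 (-0.035) in cells of low cell cycle share and the DNA replication median (0.14 between the extreme 10%). The effector median stayed between 1.62 and 2.29 throughout. Over 59 named genes past 1.5-fold, 756 of 759 values kept their direction and 721 stayed past the limit. The genes that fell under it included Irf9, Hmox1, Nfkbie, Csf2rb, Mki67 and Top2a. Of the lists, the sensor median fell under it with groups drawn within 5 depth classes (0.49) and without Ifnb1-positive cells (0.57). The IRF and STAT median did so in cells of low cell cycle share (0.42). The mitosis median did so in those cells (0.072) and with the equal-weight score (-0.50). The 59 include the score genes, whose direction the choice of cells largely fixes. They also include genes named because their ratios were the most extreme in these same data. The kept directions are therefore in part built in and are no independent check. Leaving out the 10 cells of highest score, leaving out Ifnb1-positive cells and, in DHA.LPS.4, using all cells with no score UMI were chosen after seeing the data. They gave 234 to 247 genes higher in Veh.LPS.4 and 171 to 191 in DHA.LPS.4. No paired analysis was possible because the results come from no test and each condition is 1 library, so no replicate could be left out. The promoter motif description was not run, since no promoter sequence was used here. Depth limits genes near 10 UMIs per group and shares of cells for Ifnb1.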
